A study of Mus musculus with 6 samples.

Results

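The complement genes examined in mouse striatum were 9 components and regulators among the 55335 genes of the deposited count files. They were C1qa, C1qb and C1qc, the chains of the recognition molecule C1q; C4b and C4a; Cfb; C3; the inhibitor Serping1; and the receptor C3ar1. The 9 were a list of symbols matched to Ensembl identifiers, and the list was drawn up with the difference between overexpression and control samples in view. Their differences between those groups are therefore given as a description. Test outcomes for them are listed, but no conclusion is drawn from these. RNA had been sequenced from the striatum of C57 mice, with 3 control samples of wild-type genotype and 3 samples of a genotype labelled as PDE5A overexpressing. PDE5A is a phosphodiesterase that hydrolyses cyclic GMP. Age, the means of overexpression, its target cells and what control animals received were not given in the sources used here, nor was whether each sample was a single animal. All spreads therefore describe differences between samples, which may be technical.

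Complement is a cascade of secreted proteins that tags cells and debris. The classical pathway starts when C1q binds a target and activates its proteases, C1r and C1s, and C1s cleaves C4 and C2. The resulting convertase cleaves C3, the step at which all pathways meet. The alternative pathway amplifies C3 cleavage with factor B, encoded by Cfb. C1 inhibitor, encoded by Serping1, blocks C1r and C1s. Fragments of C3 act on myeloid cells through receptors such as the C3a receptor, encoded by C3ar1. In the brain, C1q comes mainly from microglia, and complement is best known there for tagging synapses for removal by microglia.

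The library totals ran from 33013698 to 42288789 counts, and all overexpression libraries were shallower than all control libraries. Pde5a lay between 3.72 and 6.09 CPM, counts scaled to a common library size, in the controls and between 591.8 and 760.4 CPM in the overexpression samples, as labelled. Markers of medium spiny neurons, the principal striatal neurons, were abundant in every library. Ppp1r1b, which encodes DARPP-32, lay between 991.4 and 1907 CPM, so the tissue label was borne out by its markers. Choroid plexus markers stood apart in overexpression replicates 1 and 2. Their 10 genes summed to 536 and 2463 CPM there, while control libraries held 53.1 to 73.4 CPM and overexpression replicate 3 held 34.2 CPM.

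The 9 genes occupied 5 places in the genome (mm10). Of them 3 lay side by side on the minus strand of chromosome 4: C1qb at chr4:136880129-136886187, C1qc at chr4:136889804-136893065 and C1qa at chr4:136895917-136898803, a span of 18.7 kb. A further 3 lay on the minus strand of chromosome 17 in the class III region of the major histocompatibility complex: C4b at chr17:34728380-34743882, C4a at chr17:34809092-34823464 and Cfb at chr17:34856374-34862518. C3 was also on chromosome 17, far from the others, at chr17:57203970-57228136. Serping1 lay at chr2:84765387-84775444 and C3ar1 at chr6:122847138-122856161. GENCODE release M21 classes all of them as protein-coding except C4a, which is a processed transcript there.

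C4a and C4b are close copies, and their sequences are shown because they decide how far their counts can be told apart. Their longest annotated transcripts matched at 96.1% of 5367 aligned bases. Of all 100-base windows in the annotated C4b transcripts, 15.2% were also present letter for letter in C4a transcripts, and of all 50-base windows 34.6% were. The stretch of 60 bases below is the one with the most differences, 13, with the differing bases in capitals. It covers bases 2761 to 2820 of the C4b transcript and 2755 to 2814 of the C4a transcript.
C4b: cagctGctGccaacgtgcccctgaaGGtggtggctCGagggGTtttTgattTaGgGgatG
C4a: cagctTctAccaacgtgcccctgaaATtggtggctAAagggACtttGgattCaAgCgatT
Reads over such a stretch can be assigned to 1 gene, whereas reads within an identical window cannot. Read length and the treatment of reads with more than 1 match were not given in the sources used here, so the split of counts between C4a and C4b is uncertain.

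Promoters of 4 of the 9 genes were matched in the RefSeq table (build GRCm38.p6), namely those of C1qb, C1qc, C3 and C3ar1. Those of C3, C1qb and C1qc are shown because C3 had the largest fold difference of the 9 and the C1q chains moved together across libraries. Each runs 5′ to 3′ on the minus strand, with 250 bases before the transcription start and 50 from it, and capitals mark a motif match. C3 is at chr17:57228087-57228386, C1qb at chr4:136886151-136886450 and C1qc at chr4:136892865-136893164.
C3: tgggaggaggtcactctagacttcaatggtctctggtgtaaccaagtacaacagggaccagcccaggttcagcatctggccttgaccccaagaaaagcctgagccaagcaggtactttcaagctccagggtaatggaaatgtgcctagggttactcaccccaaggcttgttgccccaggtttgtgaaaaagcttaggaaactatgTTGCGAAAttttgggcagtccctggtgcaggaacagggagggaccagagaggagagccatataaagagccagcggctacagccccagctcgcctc
C1qb: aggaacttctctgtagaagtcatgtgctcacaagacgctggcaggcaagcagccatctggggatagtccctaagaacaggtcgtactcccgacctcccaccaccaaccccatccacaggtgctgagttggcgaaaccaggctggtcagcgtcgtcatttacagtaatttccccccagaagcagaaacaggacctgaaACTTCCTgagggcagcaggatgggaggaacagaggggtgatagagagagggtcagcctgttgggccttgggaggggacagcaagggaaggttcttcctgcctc
C1qc: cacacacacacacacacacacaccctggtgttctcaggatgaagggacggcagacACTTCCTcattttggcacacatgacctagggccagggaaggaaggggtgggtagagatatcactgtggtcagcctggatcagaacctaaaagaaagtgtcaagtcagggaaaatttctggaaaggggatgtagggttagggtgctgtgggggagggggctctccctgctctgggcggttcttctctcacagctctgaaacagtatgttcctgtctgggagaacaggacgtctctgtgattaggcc
Searches covered 6 motifs on both strands, with overlaps allowed: the interferon-stimulated element GAAANNGAA, the STAT element TTCNNNGAA, the ETS-IRF composite GGAANNGAA, the PU.1 core AGGAAGT, the C/EBP element TTGCNNAA and an NF-kB element GGGANNTTC. The C3 promoter held 1 match, to the C/EBP element at −45 to −38, which 10.8% of 32851 promoters of that length hold. The C1qb and C1qc promoters each held the PU.1 core on the opposite strand, at −53 to −47 and −195 to −189, and 9.35% of promoters hold it. No match to the other 4 motifs was present in the 4 windows. Shares over all promoters were 8.56% for the interferon-stimulated element, 8.30% for the STAT element, 8.24% for the ETS-IRF composite and 3.94% for the NF-kB element. These matches describe letters only.

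Across the 9 genes, C3, C4b, Serping1 and C4a differed most between the groups, the C1q chains differed little, and C3ar1 and Cfb overlapped. Fitted fold changes were positive for 8 of the 9, where 50.6% of all 19809 genes tested were positive. For 6 of the 9, every overexpression library lay above every control library, which held for 4.81% of all genes tested. The median log2 fold change was 0.41, beside 0.00 over all genes tested. In edgeR's quasi-likelihood test 0 of the 9 passed an adjusted p of 0.05, where 0.00505% of all genes passed, and 6 had an unadjusted p below 0.05, where 3.89% of all genes did. Limma-voom called 0 of them (0.0252% of all genes), and the DESeq2 Wald test called C3, C4b, C4a and Serping1 (0.419% of all genes). Since the genes were chosen on this contrast, nothing is read from these counts.

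**Figure D1:**
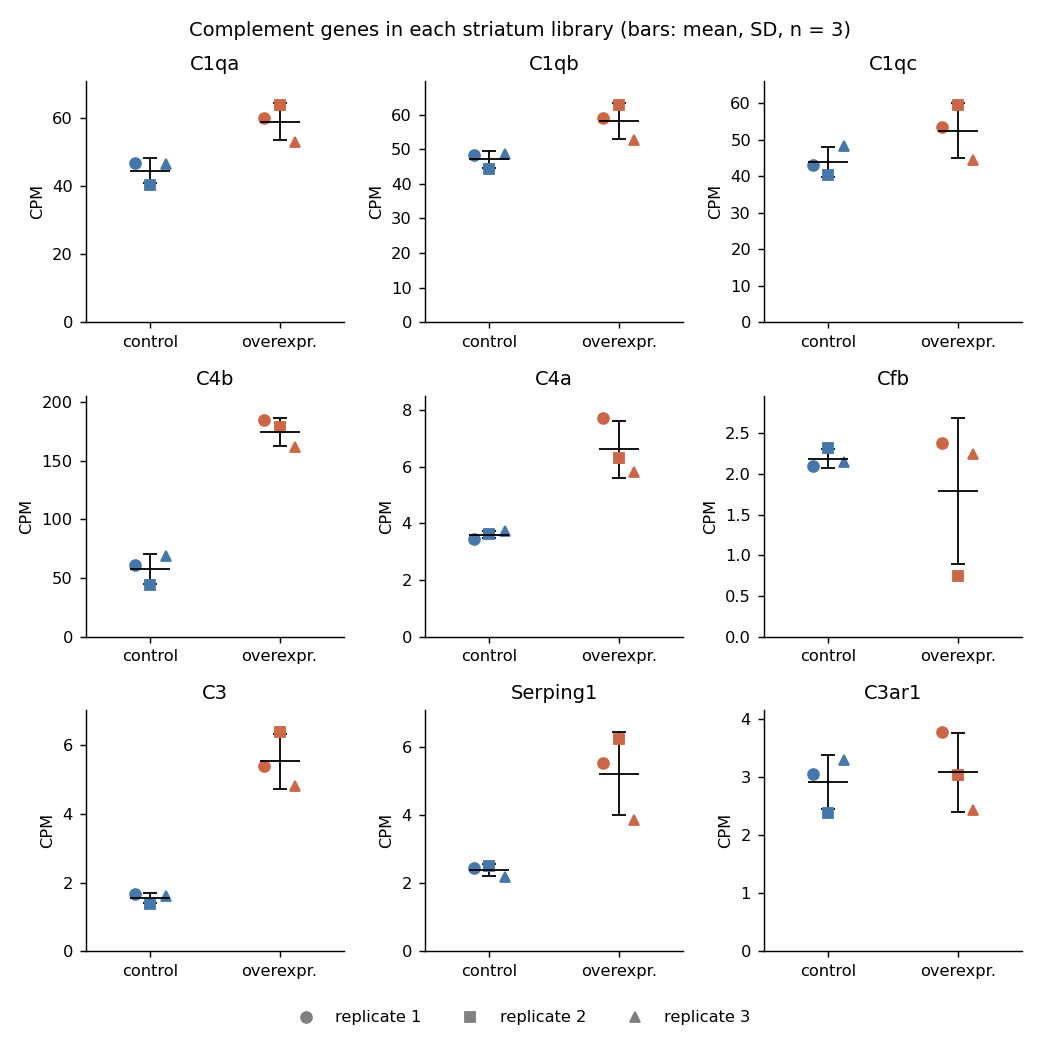
CPM (linear axis from 0) of each of the 9 complement genes in the 3 control and 3 overexpression libraries, with a symbol for each replicate number and bars for the mean and SD. The groups are apart for C1qa, C1qb, C4b, C4a, C3 and Serping1 and overlap for C1qc, C3ar1 and Cfb, where overexpression replicate 2 is low at 0.752 CPM.

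C1q, which recognises the target and starts the classical pathway, was the most abundant part of the 9. Compared per length, as TPM, a transcript abundance scaled to annotated exon length, the control means were 117 ± 11.5 for C1qb, 116 ± 14.9 for C1qa and 61.3 ± 7.21 for C1qc (SD, n = 3). C4b followed at 27.5 ± 6.88 TPM. The other 5 lay between 0.819 ± 0.117 TPM for C3 and 2.76 ± 0.234 TPM for Serping1 (SD, n = 3). Within that order C1qb and C1qa did not differ beyond their spread, nor did Cfb and C3ar1, at 2.09 ± 0.0262 and 1.83 ± 0.357 TPM (SD, n = 3). C3, last in that order, was level with C4a in the overexpression samples, at 3.004 ± 0.317 and 2.98 ± 0.460 TPM (SD, n = 3).

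C1qa had 46.8, 40.2 and 46.4 CPM across control replicates 1 to 3, against 60.1, 63.8 and 53.0 CPM across overexpression replicates 1 to 3. The groups did not overlap, and overexpression replicate 3 was the nearest to control. C1qb had 48.4, 44.2 and 48.6 CPM among controls against 59.1, 62.9 and 52.6 among overexpression samples, again without overlap. C1qc had 43.0, 40.3 and 48.3 CPM among controls against 53.5, 59.6 and 44.5 among overexpression samples, so its groups overlapped through overexpression replicate 3. The log2 fold changes were 0.41 (SE 0.10), 0.31 (SE 0.08) and 0.26 (SE 0.12) for C1qa, C1qb and C1qc. Without the choroid-rich overexpression replicates 1 and 2 they were 0.25, 0.16 and 0.02. For C1qc the value was 0.16 without overexpression replicate 2 alone and 0.08 when adjusted for choroid plexus markers.

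The proportions of the 3 chains, which are present in equal numbers in the protein, differed little in size between libraries. Per length, C1qa over C1qb was 0.9499 to 1.01 among controls against 1.05 to 1.06 among overexpression samples, higher in every overexpression library. C1qc over C1qb was 0.501 to 0.559 among controls against 0.477 to 0.534 among overexpression samples, with overlap. The 3 genes also varied together within groups: deviations from the group means correlated at 0.98 for C1qa with C1qb, 0.95 for C1qb with C1qc and 0.89 for C1qa with C1qc (Pearson, 6 libraries, which share their depth and dissection). These values are a description over few libraries.

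C1q was higher relative to other microglial transcripts. The counts of the 3 chains were 29.6%, 28.0% and 31.3% of the summed counts of 10 microglia markers across control replicates 1 to 3, against 33.4%, 38.6% and 39.3% across overexpression replicates 1 to 3. The groups did not overlap, and overexpression replicate 3, lowest of its group in C1q CPM, was highest in this share. Its microglia markers summed to 382 CPM, against 482 and 517 CPM in the other overexpression libraries and 445 to 467 CPM in control. Of the 10 markers 6 had positive fold changes, with a median log2 fold change of 0.03, 0 passed the edgeR test and none was at 0 in any library. In bulk tissue, fewer cells of a type and less RNA per cell cannot be told apart.

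C4b, the substrate of the C1 proteases, had 61.3, 43.8 and 68.4 CPM across control replicates 1 to 3, against 184, 178 and 161 CPM across overexpression replicates 1 to 3. All overexpression libraries were far above all control libraries, and control replicate 2 was the lowest. The fold was 3.02, a log2 fold change of 1.59 (SE 0.16). Relative to C1q in the same library, a ratio that does not depend on library scaling, C4b had 0.444, 0.351 and 0.477 counts per C1q count among controls against 1.07, 0.957 and 1.07 among overexpression samples. Of the summed counts of the 9 genes, C4b held 28.9%, 24.2% and 30.5% in the control replicates and 48.3%, 46.0% and 48.8% in the overexpression replicates. C1q held between 63.8% and 69.0% of that sum in the former and between 45.2% and 48.1% in the latter.

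Its copy C4a had 3.46, 3.63 and 3.71 CPM among controls against 7.73, 6.29 and 5.79 among overexpression samples. The groups did not overlap, the fold was 1.83 and the log2 fold change was 0.87 (SE 0.16). Of the counts of both genes, C4a held 5.34%, 7.66% and 5.15% among controls against 4.02%, 3.41% and 3.47% among overexpression samples. The share was lower in every overexpression library. Given the share of identical windows in the 2 genes, how many C4a counts are C4b reads is not known, and this was not tested.

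**Figure D2:**
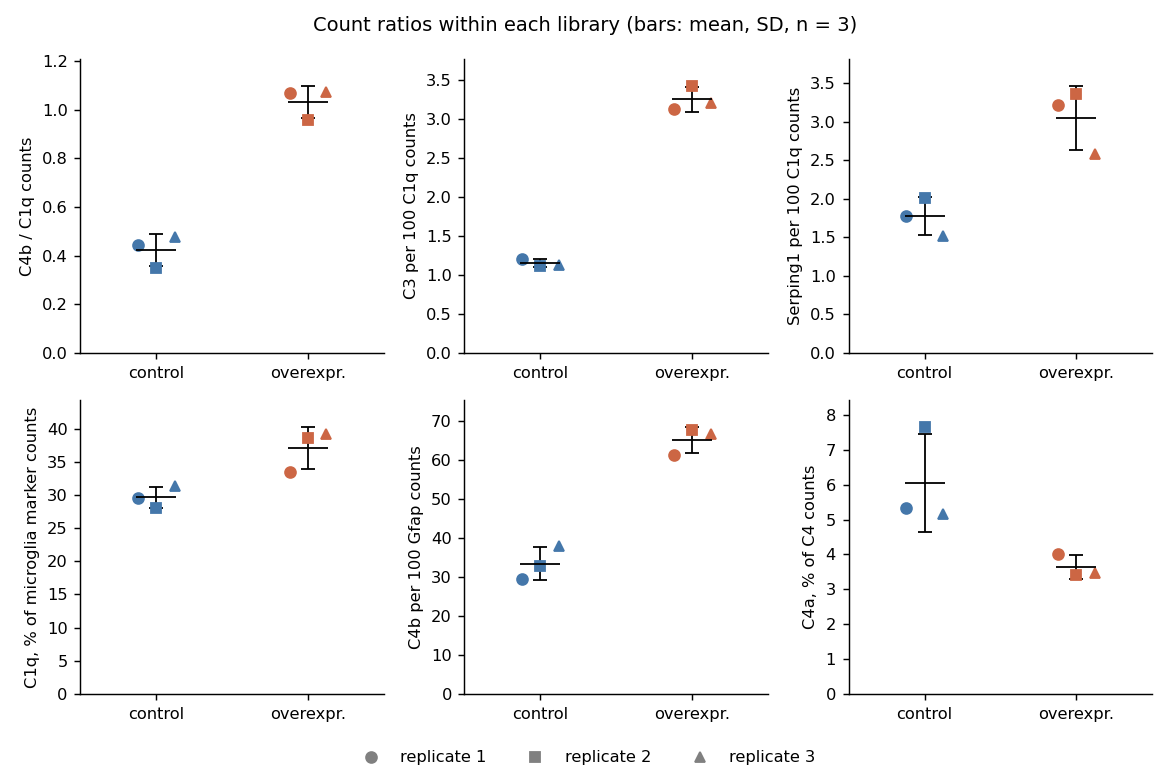
Count ratios within each library for control and overexpression samples, on linear axes from 0, with a symbol for each replicate number and bars for the mean and SD (n = 3). The ratios of C4b, C3 and Serping1 to C1q, of C1q to 10 microglia markers and of C4b to Gfap are higher in all overexpression libraries, and the C4a share of C4 counts is lower.

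C3, the component at which the pathways meet, was the least abundant of the 9 in control, both in CPM and per length. Its counts were 70, 57 and 65 across control replicates 1 to 3, against 213, 212 and 180 across overexpression replicates 1 to 3. In CPM this was 1.67, 1.39 and 1.61 against 5.40, 6.38 and 4.80. The groups were well apart, with a fold of 3.54 and a log2 fold change of 1.83 (SE 0.19). Per 100 C1q counts there were 1.21, 1.11 and 1.12 C3 counts among controls against 3.13, 3.42 and 3.20 among overexpression samples, a ratio that varied little within each group.

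Cfb, the protease subunit of the alternative convertase, had 2.099, 2.32 and 2.15 CPM among controls against 2.38, 0.752 and 2.24 among overexpression samples. The groups overlapped and a single library, overexpression replicate 2, was low. The fitted log2 fold change of −0.28 (SE 0.39) rested on that library, and without it the value was 0.08. A gene model on the same strand, Gm20547, covers 6107 of the 6145 bases of Cfb and extends into C2. It had 10, 0 and 0 counts among controls against 13, 72 and 0 among overexpression samples, so its highest count was in the library where Cfb had its lowest, 25. Added together, a sum formed after these values were seen, Cfb and Gm20547 had 98, 95 and 87 counts among controls against 107, 97 and 84 among overexpression samples. In CPM the sum was 2.27 ± 0.101 in control and 2.62 ± 0.346 in overexpression (SD, n = 3), with overlapping groups. The counts do not show a lower total over the 2 gene models in overexpression replicate 2, where the sum of 2.92 CPM was the highest of the 6 libraries.

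Serping1, which encodes C1 inhibitor, had 2.46, 2.51 and 2.18 CPM among controls against 5.55, 6.26 and 3.87 among overexpression samples. The groups did not overlap, and overexpression replicate 3 was the nearest to control. The fold was 2.19 and the log2 fold change 1.13 (SE 0.21), which became 0.70 without the choroid-rich replicates 1 and 2. Per 100 C1q counts there were 1.78, 2.01 and 1.52 Serping1 counts among controls against 3.21, 3.36 and 2.58 among overexpression samples. Set against the proteases it inhibits, Serping1 had 1.45, 2.24 and 0.807 counts per count of C1ra and C1s1 among controls against 1.92, 1.79 and 0.788 among overexpression samples, so that ratio overlapped fully.

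C3ar1, the receptor for the C3a fragment, had 3.05, 2.39 and 3.29 CPM among controls against 3.77, 3.04 and 2.43 among overexpression samples. The groups overlapped, with a log2 fold change of 0.08 (SE 0.22) that turned to −0.26 without overexpression replicates 1 and 2. As a share of the 10 microglia markers it was 0.536% to 0.719% among controls against 0.630% to 0.730% among overexpression samples. The ratio of ligand to receptor counts, C3 over C3ar1, was 0.547, 0.582 and 0.489 among controls against 1.43, 2.099 and 1.98 among overexpression samples.

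The lowest library of each group was the same for many of the genes. Among controls, replicate 2 was the lowest for 6 of the 9: C3, C4b, C3ar1 and the 3 C1q chains. Among overexpression libraries, replicate 3 was the lowest for 8 of the 9, all but Cfb. Medium spiny neuron markers averaged 0.42 above the control mean on the log2 scale in control replicate 2, the highest of the 6 libraries, and 0.65 below it in overexpression replicate 3, the lowest. The highest overexpression library was replicate 2 for 5 of the 9 and replicate 1 for 4. Microglia markers were also lowest in overexpression replicate 3, at 0.20 below the control mean, as were choroid plexus markers, at 0.45 below. The part of these lists in the orders was not tested.

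A pair of other marker lists had higher summed levels in every overexpression library than in any control. The 12 interferon-induced genes all had positive fold changes, with a median log2 fold change of 1.23 and summed levels of 46.1 to 80.5 CPM in control and 93.7 to 168 CPM in overexpression. Of 10 markers of infiltrating lymphoid and myeloid cells 9 were tested and all 9 had positive log2 fold changes. S100a8, at 0.29, overlapped between the groups, with 0.124 to 0.477 CPM in control and 0.203 to 0.561 CPM in overexpression. The list summed to 14.1 to 19.4 CPM in control and 27.4 to 36.1 CPM in overexpression. Most of each sum came from Lyz2 and Ptprc, so the sums describe mainly those genes. Lyz2 had 6.34 to 10.2 CPM in control and 12.4 to 16.9 CPM in overexpression. Ptprc had 5.997 to 6.93 CPM in control and 7.29 to 9.75 CPM in overexpression. Of the 10 markers, 4 were at 0 in at least 1 library. In both lists 0 genes passed the edgeR test. Their part in the complement differences was not tested.

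Within the control group the interferon list varied by more than the complement genes. That list lay 0.46 and 0.13 below its control mean (log2) in replicates 1 and 2 and 0.59 above it in replicate 3. In the same libraries C3 lay at 0.10, −0.15 and 0.05 and Serping1 at 0.05, 0.08 and −0.12 relative to their own control means. C4b lay at 0.11, −0.38 and 0.27, C4a at −0.06, 0.01 and 0.04 and the mean of the C1q chains at 0.03, −0.12 and 0.09. Among these 3 control libraries C4a was thus in the order of the interferon list, on 145, 149 and 150 counts, and the others were not. Over overexpression replicates 1 to 3 the list was 0.88, 1.75 and 1.22 above its control mean. C4a was 1.09, 0.80 and 0.68 above its own, and there neither C4a nor the others kept the list's order. A relation to the list was not tested.

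C3 and C4b were above every control in each overexpression library. In overexpression replicate 3 choroid plexus markers were 0.45 below the control mean (log2), while C3 was 1.60 and C4b 1.503 above theirs. In replicate 1 the choroid plexus list was 2.03 above, C3 1.76 and C4b 1.70. In replicate 2, where the choroid plexus list was 4.29 above, C3 was 2.004 and C4b 1.65 above. Over replicates 3, 1 and 2, in rising order of the choroid plexus list, Serping1 was 0.69, 1.20 and 1.38 above its control mean and the mean of the C1q chains 0.15, 0.35 and 0.46 above. Among the overexpression libraries C3, Serping1 and C1q were thus in the order of that list and C4b was not. Nor was C4a, at 0.68, 1.09 and 0.80 above its control mean over replicates 3, 1 and 2. Over control replicates 1 to 3 the list lay at 0.32, −0.06 and −0.26, and none of these genes kept its order. The list's part in these values was not tested. A fit without overexpression replicates 1 and 2 assumes that 1 overexpression library varies like the controls. Its log2 fold changes were 1.62 for C3, 1.48 for C4b and 0.68 for C4a. All were smaller than with every library.

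Astrocyte markers were mostly at lower values in the overexpression samples. Of 8 such genes 7 had negative fold changes and 0 passed the edgeR test, with sums of 5138 to 5527 CPM among controls against 4411 to 5072 among overexpression samples. The exception was Gfap, an intermediate filament of reactive astrocytes. It was singled out after its values were seen, at 208, 134 and 180.5 CPM among controls against 300.5, 264 and 242 among overexpression samples. Per 100 Gfap counts there were 29.5, 32.7 and 37.9 C4b counts among controls against 61.4, 67.6 and 66.6 among overexpression samples. Endothelial and fibroblast lists had median log2 fold changes of 0.00 and 0.11, with 3 of 6 and 5 of 6 genes positive and 0 past the test.

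**Figure D3:**
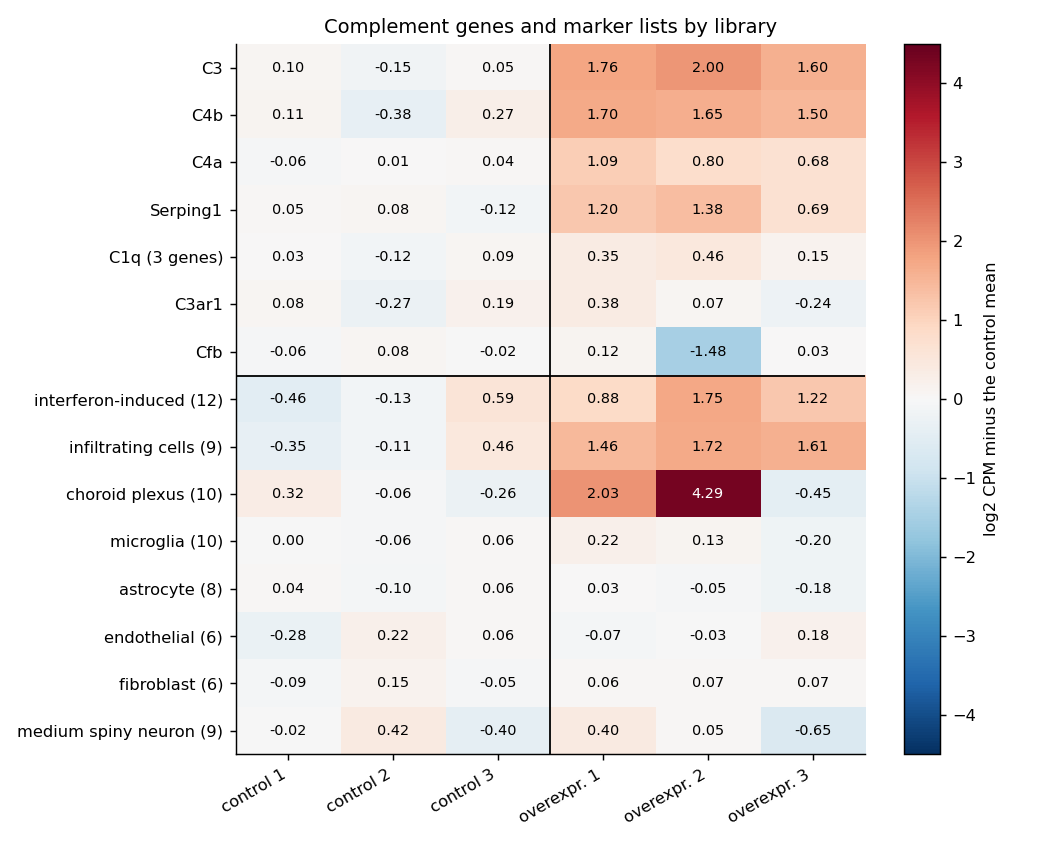
Log2 CPM minus the control mean for complement genes (upper rows) and marker lists (lower rows, number of genes tested in brackets) in each of the 6 libraries. C3 and C4b are between 1.503 and 2.004 in all 3 overexpression libraries, while the choroid plexus list is 2.03 and 4.29 in replicates 1 and 2 and −0.45 in replicate 3.

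Genes around C4b and C4a had smaller differences. Within 100 kb of the stretch from C4b to Cfb, 15 other genes were tested. None passed the edgeR test, 0 had an unadjusted p below 0.05, and their median log2 fold change was 0.07, in a range from −0.07 to 0.48. The highest was Tnxb, next to C4b, at 0.48 (SE 0.25), which was also the 1 neighbour above all controls in every overexpression library. C2, which ends 85 bases upstream of Cfb and encodes the other substrate of C1s, had 0.829 ± 0.163 CPM among controls against 1.157 ± 0.252 among overexpression samples (SD, n = 3). The 3 genes tested within 100 kb of the C1q cluster were Ephb2, Epha8 and Zbtb40, at log2 fold changes of 0.04, −0.02 and 0.36. Zbtb40 had an unadjusted p of 0.0137 and an adjusted p of 0.99996 in edgeR's quasi-likelihood test. Near C3 the 5 neighbours ranged from −0.25 to 0.19, and near Serping1 the 10 neighbours ranged from −0.14 to 0.66, with 0 past the test.

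**Figure D4:**
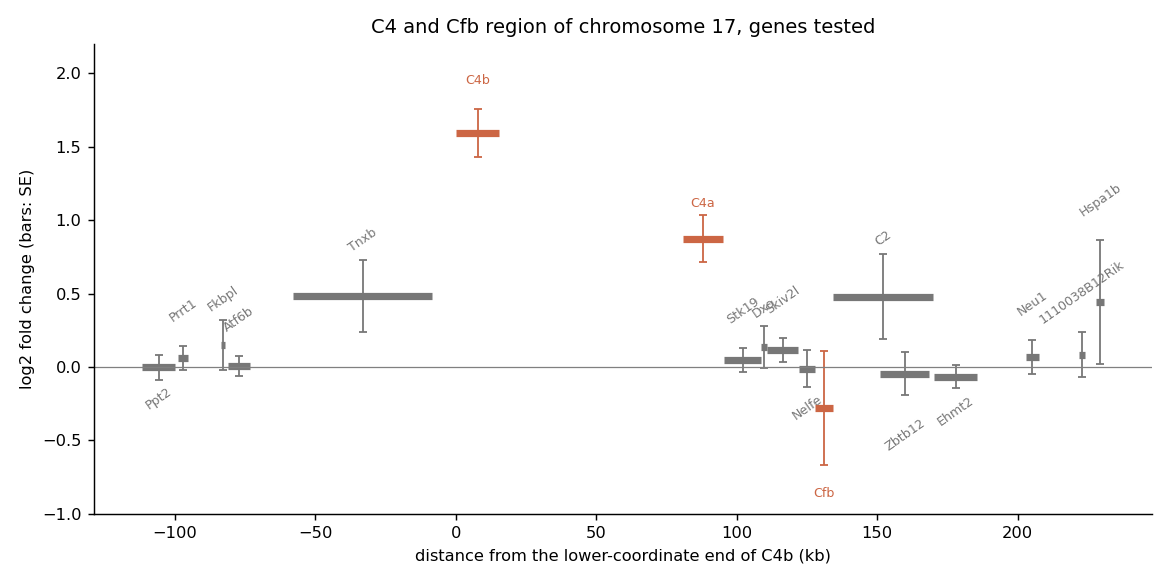
Log2 fold change (overexpression over control, bars for the standard error) of the genes tested around C4b, C4a and Cfb, against distance in kb from the lower-coordinate end of C4b; thick segments span each gene. C4b at 1.59 and C4a at 0.87 stand above the 15 neighbours, which lie between −0.07 and 0.48, and Cfb is at −0.28.

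The rest of the complement system was listed by role, leaving out the 9 genes above, and comprised 47 genes. Of these 29 had enough counts to be tested and 8 had no count in any library. Over all genes 0 of the 29 passed edgeR's quasi-likelihood test in either direction, and 0 passed in the DESeq2 Wald test or limma-voom. At an unadjusted p below 0.05 there were 3 in edgeR, C1ra, Itgax and Vtn, beside 3.89% of all genes tested. Fold changes were positive for 19 and negative for 10, with a median log2 fold change of 0.13 beside 0.00 over all genes. In 5 of the 29 every overexpression library was above every control library, where 4.81% of all genes were, and in 0 was every one below, where 4.11% of all genes were.

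The proteases of the C1 complex and their relatives had some of the largest fold changes of this list, at low levels. C1ra, which encodes C1r, had 1.03, 0.414 and 1.09 CPM among controls against 1.57, 1.44 and 2.78 among overexpression samples, a log2 fold change of 1.19 (SE 0.42) with an adjusted p of 0.99996 in edgeR's quasi-likelihood test. C1s1, which encodes C1s, had 0.995 ± 0.532 and 1.83 ± 0.449 CPM, and C1rl, a C1r-like protease, had 0.316 ± 0.0932 and 0.587 ± 0.162 CPM (SD, n = 3). C1ra and C1rl were above all controls in every overexpression library and C1s1 was not. C1s2 was above them too, at 0.202 ± 0.0254 and 0.350 ± 0.0917 CPM (SD, n = 3). Its counts were 9, 9 and 7 among controls against 18, 10 and 11 among overexpression samples. Those of C1rl were 17, 9 and 13 against 23, 25 and 16, so both separations rest on few counts. Mouse C1r and C1s genes have close copies, C1rb and C1s2, so their counts are uncertain as well. C1ra was highest in overexpression replicate 3, the library in which 8 of the 9 main genes were lowest of their group. The 8 classical and lectin genes tested had a median of 0.63, with 7 positive.

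The alternative pathway was represented by 1 tested gene besides Cfb and C3. Cfp, which encodes properdin, a stabiliser of the convertase, had 6.17 ± 1.02 CPM among controls against 7.29 ± 0.455 among overexpression samples (SD, n = 3), with overlapping groups. Cfd, which encodes factor D, the protease that cleaves factor B, had 0 counts in all 6 libraries. In a single library a count of 0 allows up to 0.0716 to 0.0902 CPM, taken as 3 counts and covering counting error only.

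The terminal components, which form the membrane attack complex, were scarcely measured. Of 7 genes 2 were tested, C8g at 1.04 ± 0.474 CPM among controls against 1.31 ± 0.354 among overexpression samples and C7 at 0.911 ± 0.286 and 0.882 ± 0.464 CPM (SD, n = 3). C6 and C9 had no counts. Hc, which encodes C5, had 8, 6 and 12 counts among controls against 22, 6 and 3 among overexpression samples, too few to be tested. The groups overlapped for C8g and C7, and the rest of this step was not tested.

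Regulators were far more abundant than the terminal components. Clu, which encodes clusterin, a soluble inhibitor of the terminal complex, had 695 ± 44.8 CPM among controls against 731 ± 46.1 among overexpression samples (SD, n = 3). Vtn, which encodes vitronectin, had 41.9, 47.0 and 45.1 CPM among controls against 54.4, 51.9 and 54.3 among overexpression samples. Its groups were separate by a small margin, with a log2 fold change of 0.26 (SE 0.07) and an adjusted p of 0.937 in edgeR's quasi-likelihood test. Cfi, which encodes factor I, had no counts.

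Membrane regulators stood close to 0 difference. The 9 tested had a median log2 fold change of −0.05 and a range from −0.16 to 0.28, and none separated the groups. Cr1l, which encodes Crry, the main convertase inhibitor on rodent cells, had 23.1 ± 1.39 CPM among controls against 21.3 ± 1.01 among overexpression samples. Cd59a, an inhibitor of the membrane attack complex, had 8.77 ± 2.58 and 10.6 ± 2.44 CPM, and Csmd3 had 54.8 ± 6.96 and 49.1 ± 10.95 CPM (SD, n = 3).

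Among 7 receptors tested besides C3ar1, Itgax differed most. It encodes the α chain of complement receptor 4, a marker of dendritic cells and of activated microglia, and had 0.620, 0.268 and 0.841 CPM among controls against 1.55, 1.17 and 1.04 among overexpression samples. The groups did not overlap, and the log2 fold change was 1.12 (SE 0.41) with an adjusted p of 0.99996 in edgeR's quasi-likelihood test. Its shared β chain Itgb2 had 6.31 ± 0.569 and 7.54 ± 0.759 CPM, and Cd93 had 5.80 ± 1.29 and 6.996 ± 1.39 CPM (SD, n = 3). Itgam, the α chain of complement receptor 3, had 29.4 ± 3.76 and 28.9 ± 5.32 CPM (SD, n = 3). Among receptors for C5a, C5ar2 had 47, 34 and 34 counts among controls against 0, 48 and 30 among overexpression samples, a single library without a count. Itgam and C5ar2 were named after their values were seen.

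**Figure D5:**
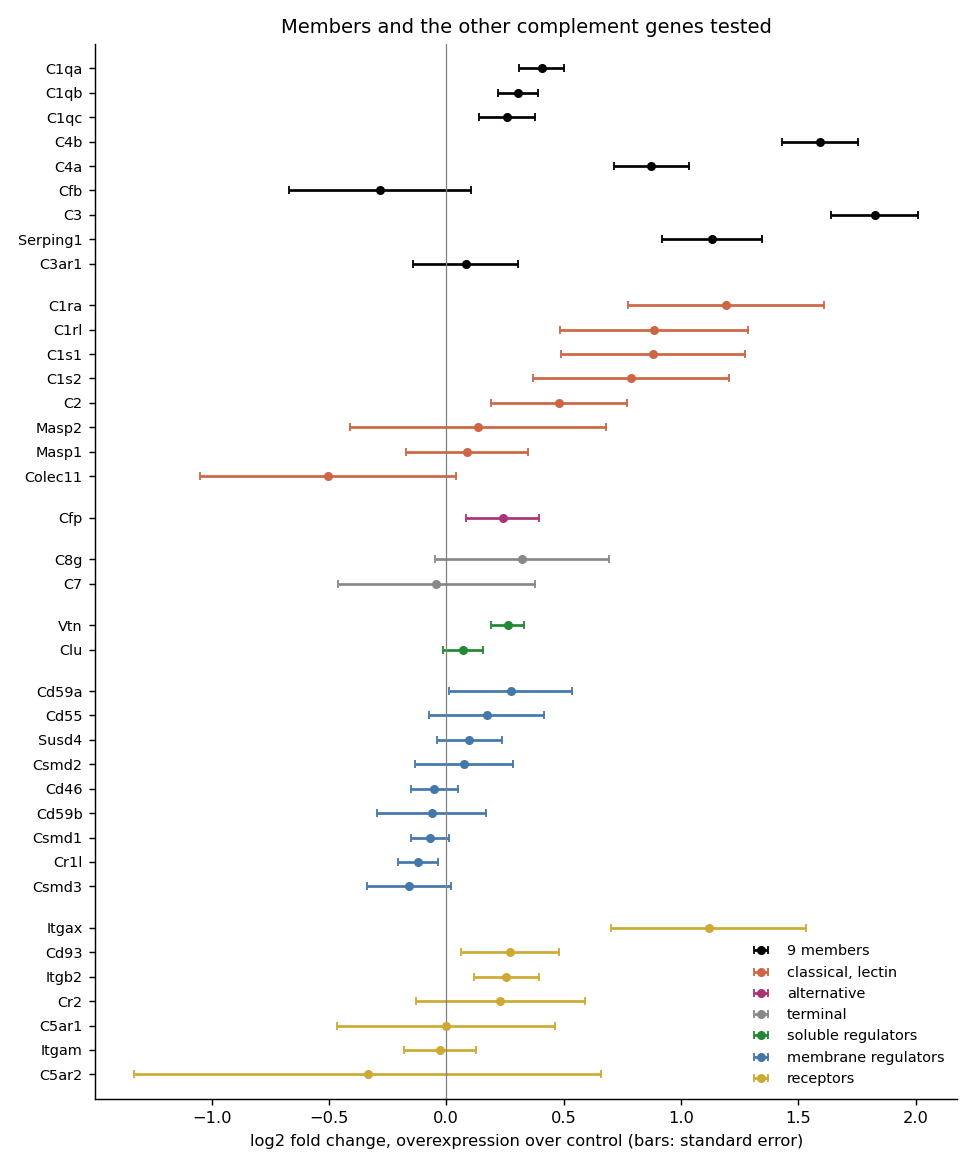
Log2 fold change (overexpression over control) with its standard error for the 9 complement genes (black) and the 29 other complement genes tested, coloured by role. C3, C4b and Serping1 lie furthest to the right among the 9, C1ra and Itgax among the others, and the 9 membrane regulators lie between −0.16 and 0.28.

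Genes with the most similar profile over the 6 libraries were sought among 13792 named genes with a mean of at least 1 CPM over all 6 libraries. For C3 they were Tbcc, Trim56 and Alyref, with Pearson correlations of log2 CPM of 0.996, 0.991 and 0.989. For C4b they were Tbcc, Ly9 and Pde5a itself, at 0.983, 0.982 and 0.977. Ly9 reached the minimum only through the overexpression libraries, at 0.740, 0.341 and 0.619 CPM among controls against 2.08, 1.71 and 1.84 among overexpression samples, so its likeness was favoured by the choice of genes. For the mean of the C1q chains they were Apobec3, Ctss and Trem2, at 0.998, 0.990 and 0.990. Ctss, which encodes the lysosomal protease cathepsin S, had 89.7, 78.4 and 92.0 CPM among controls against 122, 132 and 105 among overexpression samples. Trem2, a microglial receptor, had 16.6, 14.7 and 17.9 CPM among controls against 20.5, 22.6 and 17.6 among overexpression samples. Both had control replicate 2 and overexpression replicate 3 as the lowest of their groups, as C1q did, which their choice by correlation favoured. These correlations are over 6 libraries that share the difference between groups, and they are the highest of many.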

How the data were processed

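RNA had been extracted with Trizol and made into strand-specific TruSeq libraries, per the labels' protocols. The authors deposited 1 file a sample, with unnormalized whole-number counts by Ensembl gene. STAR 2.5.3a, DESeq 1.16.1, Cuffnorm, FastQC 0.11.5 and build mm10 are named, without roles, per the submitters' processing notes. The counting program, strand setting and annotation release were not given in the sources used here, so overlapping genes and close copies have uncertain counts. Symbols, exon lengths and positions came from GENCODE M21, which named 55154 of 55335 identifiers.

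CPM used TMM-adjusted library sizes, and log2 CPM a prior count of 2. TPM used the union of annotated exons. Groups were compared over all 19809 genes kept by filterByExpr with edgeR 4.0.16 (R 4.3.3, robust quasi-likelihood F-test, two-sided, Benjamini-Hochberg, threshold 0.05). Standard errors are the absolute log2 fold change over the square root of F. Alternatives were DESeq2 1.42.0 and limma-voom (limma 3.58.1), other size factors and filters, a replicate block, a choroid plexus covariate and libraries left out. The tests were tried on simulated counts. The complement genes, lists and alternatives were chosen with earlier results of these data known. Named genes were the 9, up to 3 per role with the smallest p, and the 3 most similar profiles, unnamed gene models passed over. Neighbouring genes, genes without counts and others outside this rule were named after their values were seen. The results of 1 complement gene are not reported here.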

Additional observations from a re-analysis of the deposited data

How the results depend on the processing

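Over 15 other settings the log2 fold changes of C3, C4b, C4a, Serping1 and the 3 C1q chains were positive in every one, from 1.62 to 1.91 for C3 and 1.43 to 1.74 for C4b. Serping1 ranged from 0.70 to 1.30 and C1qc from 0.02 to 0.36. Cfb was positive in 3 of 15 and C3ar1 in 11 of 15. The median of the 9 genes was 0.25 without both libraries high in choroid plexus markers and 0.34 to 0.48 when each library was left out in turn. The median of the other complement genes was 0.26 without both choroid-rich libraries, 0.25 when adjusted for the choroid plexus level, and 0.10 to 0.24 when each library was left out, while 0 of them passed in any setting. The number of all genes past the threshold was 1 in edgeR, 83 in the DESeq2 Wald test, 5 in limma-voom, 3 with no filter on low counts, 5 without both choroid-rich libraries, and 1 to 2 when each library was left out. Of the 9, C3 was among the 3 called of 34116 genes tested with no filter. C4b was among the 2 called of 20378 without control replicate 2, where C3 had an adjusted p of 0.351. Without control replicate 1 the adjusted p was 0.769 for C3 and 0.9998 for C4b, all in edgeR's quasi-likelihood test. Since the 9 genes were chosen on this contrast, nothing is read from these calls. The cause of the changes between settings was not tested. With the replicate number as a block 3 genes passed, none of them among the 9. Same-numbered samples did not pair throughout: their deviations from the group means correlated at −0.02, 0.03 and 0.29. Control replicate 1 correlated best with overexpression replicate 3, at 0.06, and control replicate 2 with overexpression replicate 1, at 0.35. Only control replicate 3 correlated best with its own number. Low counts limit the precision for C1rl, C1s2 and the terminal components.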
